A study of Mus musculus with 8 samples.

Results

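The baseline transcriptome of wild-type rib chondrocytes was read from the 4 arrays labelled control, of 8 arrays in all, and no genotype contrast was made. Chondrocytes are the cells that build cartilage. They were freed from rib cages of FVB mouse embryos at E18.5 by digestion with collagenase and trypsin, strained and stored in Trizol. The control embryos are labelled wild type, and the other 4 arrays hold their Hoxd4 transgenic littermates of the same age and strain. Per the series' design the embryos came from 4 litters and were grouped by genotype within each litter. Litters 1 to 4 below are the replicate numbers; a control and a transgenic sample of the same replicate share a number in their descriptions, which was taken to mark the litter although the labels do not say so. Neither the number of embryos in a pool nor the promoter of the transgene is stated in the labels. The 45037 probe sets outside the manufacturer's controls were ranked by the mean of log2(signal + 32) over the control arrays, and the first 300 are described as the most abundant transcripts. A gene was given the value of its brightest probe set assigned to it alone, which covered 18193 genes. Signals are in the arbitrary units of MAS5, and values for single arrays run in the order of litters 1 to 4.

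The labels were set against the overexpressed gene before anything else. Only 2 probe sets carry Hoxd4, both of them shared with Hoxd3 in the annotation. The brighter gave 27.3, 42.6, 4.10 and 256 on control and 94.1, 415, 172 and 13.0 on transgenic arrays, so it was higher on the transgenic array in litters 1, 2 and 3 and lower in litter 4. The array labelled control in litter 4 thus goes against its label by this probe set, and "control" below means what the label says. The other probe set stayed at 48.0 or less on all 8 arrays. Without the control array of litter 4, 299 of the 300 brightest probe sets were still among the first 300, the mean log2 level of the 5 markers was 15.26 in place of 15.23, the number of transcription factors above background was 395 as with it, and the median SD of the first 300 was 0.07 in place of 0.08.

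Cartilage is mostly matrix. Chondrocytes secrete type II collagen, which forms fibrils with types IX and XI, and fill the mesh with aggrecan, a proteoglycan held on hyaluronan by link protein. Late in gestation the ribs lengthen by the division and then the hypertrophy of chondrocytes, and they are wrapped in perichondrium and muscle. The transcription factor Sox9, with Sox5 and Sox6, switches on the genes of this matrix.

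The 5 marker genes of chondrocytes all lay among the first 300 probe sets. Cnmd, which encodes the cartilage protein chondromodulin, had the brightest probe set of all, with signals of 55564, 47716, 51976 and 49182. Col9a1, a chain of type IX collagen, was at rank 13 with 46052, 43653, 47128 and 42113. Col2a1, the type II collagen gene, was at rank 23 with 40939, 39633, 47711 and 40788, and the control array of litter 3 stood above the other three. Comp, cartilage oligomeric matrix protein, was at rank 153 with 31026, 31785, 31988 and 29546. Acan, the gene of aggrecan, was at rank 184 with 29649.8, 28679, 29364 and 25742, lowest in litter 4. All 5 markers thus had high signals on each of the control arrays. A rank orders the signals of probe sets, whose probes bind with different strength, and not numbers of transcript molecules.

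Detection calls were not used here, so olfactory receptor genes, a family of the nose, served as a measure of background. Their 38 genes had a median signal of 31.8 and a highest of 105, and their 95th percentile lay at 90.6 on the same scale. Of all 18193 genes 11444, or 62.9%, lay above that percentile. The median signal of a control array was 103 to 115, and the first 300 probe sets held 24.0% to 25.6% of its summed signal. Every pair of control arrays had a Spearman correlation across probe sets of 0.932 to 0.940. Xist, the transcript of the inactive X chromosome, gave 5778, 9945, 13760.0 and 8098, and the Y-linked gene Eif2s3y 616, 772, 358 and 486, so each control pool showed transcripts of both sexes. On the transgenic arrays of litters 1 and 3 Xist gave 79.8 and 47.2.

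The first 300 probe sets ran from a mean signal of 51109.6 to 19388, that of the elongation factor Eef2, and the next in rank had 19262. Of the 300, 178 were assigned to 1 gene and named 126 genes, 93 were assigned to several genes and 29 were unnamed here. Among the 93 were 73 with a ribosomal protein among their genes and 4 assigned to globin genes only. Of the 300, which were chosen by their mean over these same arrays, 281 ranked among the first 300 on each control array and the lowest rank of any of them on 1 array was 425. Probe sets whose names mark them as able to bind several transcripts made up 41.7% of the 300 and 10.1% of all. The 126 genes are 0.693% of those measured, and 98 of them belong to at least 1 of the gene lists used below.

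**Figure D1:**
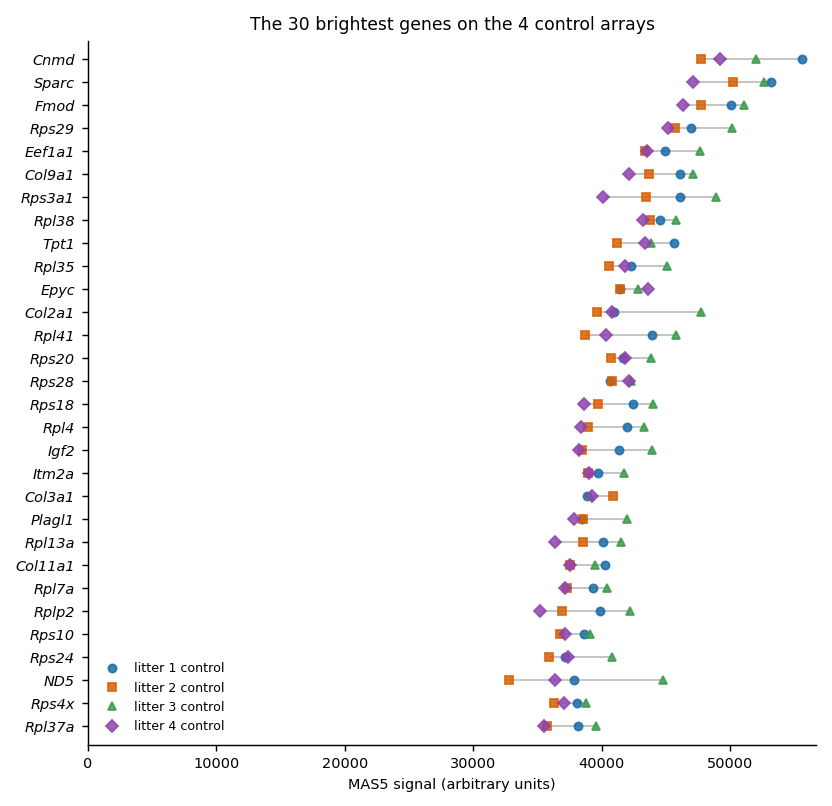
MAS5 signal (arbitrary units, from 0) of the 30 brightest genes on the 4 control arrays, with 1 symbol per array and a grey line over their range. Matrix genes (Cnmd, Sparc, Fmod, Col9a1, Epyc, Col2a1) stand beside genes of the ribosome, and the litter 3 array (triangles) is often the highest of the 4.

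Fibril collagens and their partners were among the brightest transcripts. Of 42 collagen genes on the array 39 lay above background and 11 in the first 300. The cartilage collagens were represented by 5 of 7 genes there: Col9a1, Col2a1, Col11a1 at 38689 ± 1378 (SD, n = 4), Col9a3 at 36258 ± 3204 and Col11a2 at 25223 ± 1604. Col9a2 (17745) and Col27a1 (11188), a fibril collagen of cartilage, were dimmer. The other 6 collagen genes in the first 300 are known from connective tissue outside the cartilage core as well. Among them, Col3a1 gave 38815, 40898, 39058 and 39268, Col1a2 35068, 37975, 40089.8 and 33779 and Col1a1 20482, 25588, 25915 and 21754. Col1a1 and Col1a2, the chains of type I collagen of bone and perichondrium, were both higher on the control arrays of litters 2 and 3 than in litters 1 and 4. In these bulk pools a cell type that is scarce and one with little of a transcript per cell cannot be told apart.

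Small leucine-rich proteoglycans, which bind collagen fibrils and set their spacing, had 4 of 16 genes in the first 300 and 14 above background. Fibromodulin, Fmod, was the brightest of them with 50029, 47690.0, 51079 and 46309.7. Epyc, encoding epiphycan of growth cartilage, gave 41437, 41394, 42817 and 43618, with an SD of 0.04 on the log2 scale. Biglycan, Bgn, stood at 36997 ± 1623 and lumican, Lum, at 25826 ± 654 (SD, n = 4). Chad (17215), Dcn (16431), Ogn (13949.7) and Aspn (12671) came next, and Optc and Nyx, known from the eye, were below background at 38.6 and 76.8.

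Of 12 secreted proteins that are largely restricted to cartilage, 5 were in the first 300 and 10 above background. Besides Cnmd these were Ucma at 33066 ± 3389, Mia at 27702 ± 1349, Mgp, an inhibitor of mineral deposition, at 23582 ± 1564 and Snorc at 21749 ± 1602 (SD, n = 4). Ucma gave 36736, 32623, 34245 and 28660.3, highest in litter 1 and lowest in litter 4. Scrg1 (17110.0) and Cytl1 (11130.1) lay outside. The link protein gene Hapln1 was at 23859.6 ± 1461, while versican, Vcan, the aggrecan relative of looser tissue, had 4425, 6180.0, 4902 and 5379. Prg4, encoding the lubricin of joint surfaces, gave 720.2, 992, 1019 and 559. Matrilins and thrombospondins were all above background, 9 of 9 with Comp. Matn3 (18807) was at rank 311, and Matn1 gave 5746.

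The machinery that folds and exports collagen was bright as a set. All 38 genes of its list, which also took in the protease gene Ctsk, lay above background and 7 in the first 300. Serpinh1, the collagen chaperone HSP47, gave 31003, 30663, 30928 and 30867 on its brightest probe set. Ppib, a prolyl isomerase of procollagen, stood at 29006 ± 1627, P4hb, a subunit of prolyl hydroxylase, at 27218 ± 1355, and Hspa5, the main chaperone of the endoplasmic reticulum, at 24890.4 ± 1978 (SD, n = 4). Plod2, a lysyl hydroxylase, gave 23108, 19268, 19536 and 19510.0, with the litter 1 array apart from the rest. Sparc, a matrix protein that binds collagen, was at rank 2 overall with 53141, 50246, 52656 and 47106.

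Genes of protein synthesis filled the largest share of the list. By their names, 48 genes with a probe set of their own were counted as cytosolic ribosomal proteins. Of these 34 were in the first 300 and 45 above background, with a median signal of 30370.3. The ribosomal protein gene Rps3a1, at rank 14, and Rpl22l1, a relative of Rpl22 at rank 250, were not among the 48. Rps29 gave 46945, 45691, 50106 and 45152 and Rpl38 44522, 43768, 45739 and 43226. Rps28 had one of the steadiest probe sets of the list, with 36426, 37191, 36973 and 36322. The elongation factor Eef1a1 gave 44915, 43359, 47616 and 43498 and Tpt1 45625, 41152, 43795 and 43375, and 7 of 61 translation factors were in the first 300. The median SD of the ribosomal proteins over the control arrays was 0.08 on the log2 scale, and that of all the first 300 probe sets was 0.08 as well.

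Many messenger RNAs of ribosomal proteins are known to begin with a C and a run of pyrimidines, through which their translation is controlled. The start sites of some of the brightest genes of protein synthesis are shown as examples, and counts over the lists are given with them. Most of the examples have such a run. Rps3a1, Tpt1, Rps28 and Rpl4, also among the brightest, have none at the start and are not shown. A run was counted where a C within 5 bases of the annotated start was followed by at least 5 bases that were each C or T. It was found at 10.2% of all 27025 promoters. Of the 34 ribosomal protein genes of the first 300 counted above, 29 matched the promoter table. A run stood at the RefSeq start (GRCm38.p6) of 12 of these 29, or 41.4%, while 17 lacked it. It was not particular to them, for 3 of 7 collagen genes of the first 300 in the table, or 42.9%, had a run as well. The feature was chosen with the levels known. Each line gives 30 bases, 10 before the start and 20 from it on, 5′ to 3′ on the gene's strand, with the run in capitals. Rpl38 lies at chr11:114668570-114668599 (plus strand), Rpl35 at chr2:39005112-39005141 (minus), Rps18 at chr17:33955646-33955675 (minus), Rps10 at chr17:27635225-27635254 (minus), Eef1a1 at chr9:78481705-78481734 (minus) and Rpl41 at chr10:128549149-128549178 (minus).
Rpl38: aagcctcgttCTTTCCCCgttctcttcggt
Rpl35: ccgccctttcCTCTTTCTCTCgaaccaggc
Rps18: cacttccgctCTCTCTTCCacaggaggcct
Rps10: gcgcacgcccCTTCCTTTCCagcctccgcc
Eef1a1: ctccgccctCTTCCCgagggtgggggagaa
Rpl41: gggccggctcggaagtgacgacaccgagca
Rpl41 has no such run at its annotated start, which says only that these letters are not in this window. Outside ribosomal proteins and translation factors, 13 of 66 genes of the first 300, or 19.7%, had a run.

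Imprinted genes, which are expressed from 1 parental copy and many of which act on fetal growth, had 9 of 20 members in the first 300 and 17 above background. The growth factor gene Igf2 gave 41318, 38428, 43901 and 38242, Plagl1 38425, 38531, 41994 and 37810.2, Peg3 36004, 32533, 36076 and 32214 and Dlk1 34642, 33718, 36119 and 31339.6. Meg3, a long noncoding RNA, had 11 probe sets, whose mean signals ran from 783 to 36622. Grb10, Cdkn1c, Mest and Gnas completed the 9. The median SD of the imprinted genes over the control arrays was 0.10 on the log2 scale.

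Immediate early genes, which cells switch on rapidly after many stimuli, tissue dissociation included, were bright on every control array. Of 32 on the array 31 lay above background and 3 in the first 300. Fos gave 28268, 28812, 29365 and 28026 and Jun 23671, 24652, 23742 and 24123, and these probe sets were among the 8 steadiest of named genes in the list. A dimmer probe set of Jun gave 5595, 5999, 4774 and 4957, with an SD of 0.15 on the log2 scale against 0.03. Ccn1 stood at 21600.2 ± 955, Dusp1 at 14748 ± 1280.4 and Egr1 at 13656 ± 1997 (SD, n = 4). Egr1 was the most uneven of these, with 13511, 16512, 12062 and 12537. Heat shock genes had 15 of 15 members above background, and the inducible Hspa1b gave 15994, 17262, 14709 and 14401.

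Genes of glycolysis, a list that also took in the glucose transporter gene Slc2a1, were all above background, 16 of 16. Pgk1 at 29035 ± 2414 and Ldha at 22929 ± 2200.2 (SD, n = 4) were in the first 300. Cartilage has few vessels and its cells are known to rely on glycolysis. Tpi1, triosephosphate isomerase, gave 22388, 17550.3, 17857 and 17293, and Ldha 26164, 21889, 22364 and 21299, both highest in litter 1. Of 79 nuclear genes of oxidative phosphorylation 77 lay above background and 3 in the first 300, led by Uqcrb at 31057 ± 1945. The mitochondrial transcript ND5 gave 37842, 32789, 44746 and 36391, one of the wider ranges in the list. Cell division was in evidence too: all 32 cell cycle genes lay above background, led by Pcna at 13639.7 ± 1043 and Stmn1 at 10317 ± 235, and Mki67, a marker of dividing cells, gave 5739.

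Genes of hypertrophic chondrocytes were present at lower signals. All 13 on the array lay above background and none was in the first 300. Col10a1, the collagen of hypertrophic cells, gave 8035, 7715, 7808 and 7003. Pth1r, the receptor of parathyroid hormone-related protein, gave 4517, 3422, 3554 and 3368, highest in litter 1, and Panx3 2996, 3699.5, 3231 and 3192. Ihh (381) was dim, as were the terminal markers Ibsp (743), Mmp13 (168) and Dmp1 (125). Of 47 growth factor receptors 43 were above background. Fgfr3, which restrains growth of cartilage, gave 8168, 7118, 8666 and 7968, and Igf2r, which clears Igf2, 9799.7, 8062, 7567 and 7213. Among the integrin genes, whose list also took in Itgbl1 and 3 genes of binding proteins that are not subunits, Itgav led at 7125 ± 517, and Itga10, a collagen receptor subunit of chondrocytes, gave 1478. Of 18 matrix metalloproteinases 10 were above background, a smaller share than the 62.9% of all genes. Mmp2 stood at 8421 ± 603 and Mmp14 at 3393 ± 226, and Timp2 led their inhibitors at 7158 ± 196 (SD, n = 4).

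Transcripts known from other cell types of the rib cage were on all control arrays. The counts above background stand against 62.9% of all genes. Genes of perichondrium, fibroblasts and tendon had 28 of 28 members above background and 9 in the first 300, and that list shares several collagens with the lists above. Postn, periostin of the perichondrium, gave 28189, 36665, 36449.5 and 31265, and Tnmd, tenomodulin of tendon, 7747, 12471, 11650.0 and 9155. Both were lowest in litter 1. Skeletal muscle was marked by 25 of 31 genes, with Acta1 at 6707, 12525, 7747 and 7296 and Myl1 at 5143, 11265, 7265 and 6392, both highest in litter 2. The muscle regulators Myod1 and Myf5 gave 299.9 and 338. Endothelial genes were dim, 15 of 17 being above background and the highest, Eng, at 783. Of 11 genes of osteoblasts and bone 9 were above background, but apart from the type I collagen genes the highest was Smpd3 at 2450.5, and Sp7, a regulator of bone formation, gave 468.

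Blood cells left some of the brightest signals. The 4 probe sets assigned to several globin genes only were at ranks 3, 80, 106 and 121, and the first of them gave 49637, 46859.7, 55362 and 48374. The erythroid genes with a probe set of their own were far dimmer. Of 14 on the array 8 lay above background, and Alas2, the first enzyme of heme synthesis in red cells, gave 2947, 3329, 6100.2 and 4613. Macrophage and osteoclast genes had 13 of 21 members above background, led by the protease gene Ctsk at 2039.7 ± 513 (SD, n = 4), and Csf1r, the receptor of macrophages, gave 244, 839.8, 393 and 397. Of 15 genes of granulocytes and lymphocytes 5 were above background, led by S100a8 with 1535, 2602, 940.4 and 1796. Of 14 genes of epidermis and mesothelium 4 were above background, and of 9 adipocyte genes 3, with Adipoq at 45.6. Of 11 genes of smooth muscle and pericytes 10 were above background, and of 12 of nerve and Schwann cells 7. Of all genes 62.9% lay above background, and in this paragraph only the count of smooth muscle and pericyte genes exceeded that share. The other counts do not by themselves show these cells. How much of any signal above came from the cell types named was not tested.

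**Figure D2:**
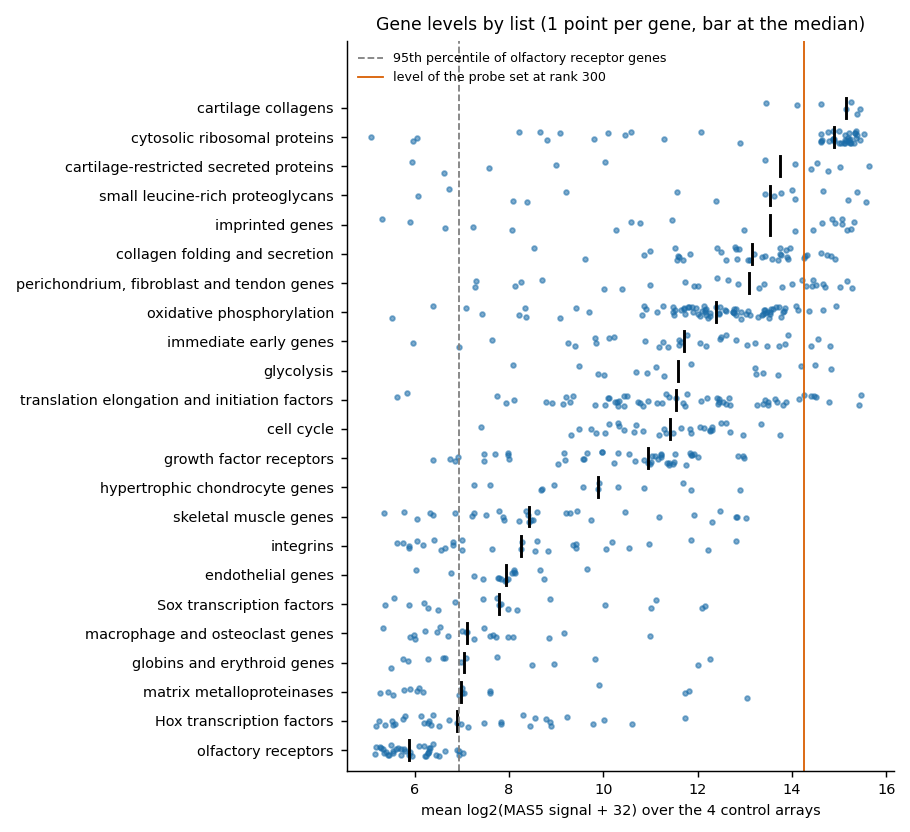
Mean log2(MAS5 signal + 32) over the 4 control arrays for each gene of 23 lists, with 1 point per gene and a black bar at the list's median; lists are ordered by that median, the dashed line is the 95th percentile of olfactory receptor genes and the orange line the level at rank 300. Cartilage collagens and ribosomal proteins have medians above the orange line, and the median of the Hox list, at a signal of 88.8, lies just below the dashed one.

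Of 553 transcription factors on the array 395, or 71.4%, lay above background, against 62.9% of all genes. The first 300 probe sets held 5 of them: Plagl1, Peg3, Fos, Tsc22d1 and Jun, so that 2 were imprinted zinc finger genes and 2 subunits of AP-1. Tsc22d1 gave 25826, 26085, 26418 and 22932. The signal of Plagl1 depends on the probe set, the other 2 giving 4265 and 390.4 against 39190.1. The first 1000 probe sets held 19 factors. Ctnnb1, encoding beta-catenin, gave 19373, 18972, 18921 and 18887, the smallest spread among the brightest 30 factors. Snai2 had 20356, 15603, 18316 and 16420.3, Atf4, a regulator of amino acid supply, 16945, 13365, 15671 and 14001, and Xbp1, a regulator of the secretory pathway, 14795, 13226, 13237 and 13935. Hif1a, which carries the response to low oxygen, gave 7809, 7648, 7368 and 8143.

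The regulators of chondrocyte identity were not the brightest factors. Sox9 gave 4844, 4093, 4454 and 3889, at rank 1701 of all probe sets, Sox6 2036, 2166, 2339 and 2234 and Sox5 2315, 1865, 2139 and 1826. Sox4 (4562) led the family beside Sox9, and 12 of 19 Sox genes were above background, near the 62.9% of all genes. Trps1, a repressor in growth cartilage, stood at 6332 ± 432, Gli3, of the hedgehog pathway, at 2355 ± 255 and Mef2c, a factor of hypertrophy, at 1825 ± 69.1 (SD, n = 4). Foxa3 gave 905, Foxa2 491 and Runx3 387. Pax1 was low at 180.0, and Pax9, at 55.2, and Nkx3-2, at 74.6, lay below background; all 3 are factors of the earlier sclerotome. Of 33 Hox genes, which mark position along the body axis, 16 were above background, a smaller share than that of all genes. Hoxc8 led with 3383, 3345, 3251 and 3426, followed by Hoxa5 at 1525 ± 148, Hoxc6 at 997 ± 73.2 and Hoxc4 at 854 ± 83.4, while Hoxd11 (39.2) and Hoxd13 (64.4) of the distal limb lay below background. Of 12 T-box genes 4 were above background, also a smaller share, and of 8 Smad genes all 8, with Smad4 at 4298 ± 255.

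**Figure D3:**
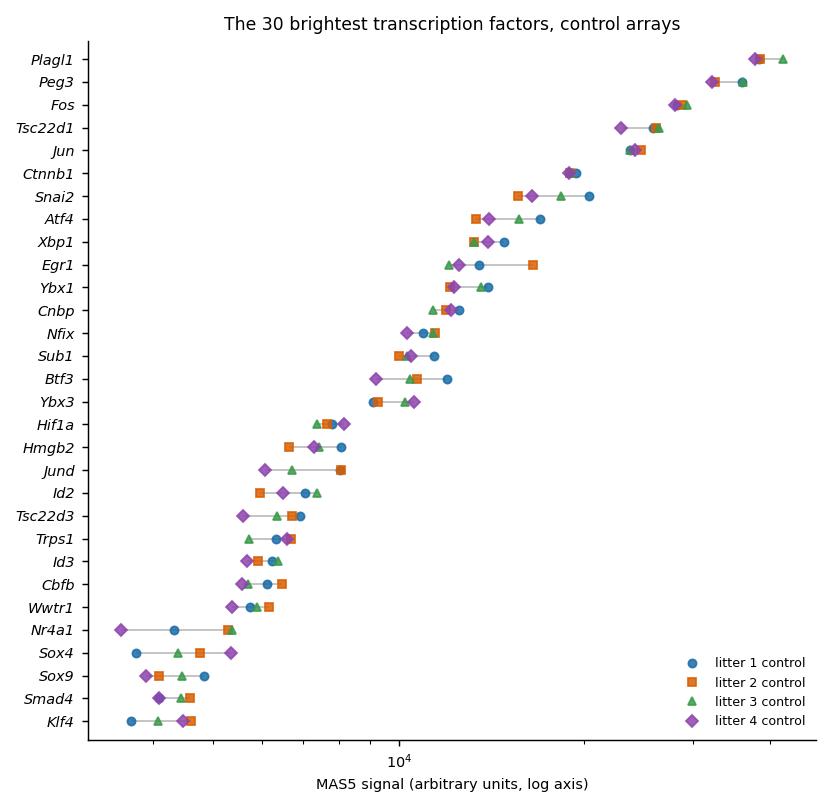
MAS5 signal (arbitrary units, log axis) of the 30 brightest transcription factors on the 4 control arrays, with 1 symbol per array and a grey line over their range. Plagl1, Peg3, Fos, Tsc22d1 and Jun stand above the rest, Sox9 is near the bottom of the 30, and Nr4a1 and Sox4 have wide ranges.

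The brightest probe sets had the smallest spread. Over the first 300 probe sets the median SD among the 4 control arrays was 0.08 on the log2 scale, and for 299 of them the highest array was under 1.5 times the lowest. The median SD rose as the level fell, to 0.11 for ranks 1001 to 5000, 0.21 for ranks 10001 to 22518 and 0.37 below. Part of the spread at the top ran through whole arrays. The litter 3 array was the highest of the 4 for 180 of the 300 and the litter 1 array for 99, and after quantile normalization of the 4 arrays these counts were 75 and 95 and the median SD 0.04. The spread could differ between bright and dimmer probe sets of a gene: Col3a1 had an SD of 0.03 on its brightest probe set, at 39509.7, and of 0.23 on another at 9037. Whether signals near the top of the range are compressed was not tested.

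Single genes of the first 300 varied more. Serpinh1 had both extremes: its probe set at rank 297 gave 25225, 22313, 14803 and 17596, the largest SD of the 300 at 0.34, and its brightest one, quoted above, had the smallest among named genes at 0.0068. Higd1a, a mitochondrial protein induced by low oxygen, gave 23769.6, 18097, 22256 and 16993, high in litters 1 and 3. Cd24a, a cell surface protein, gave 22524, 16346, 22560.5 and 19924, lowest in litter 2. Postn and Col1a1 of the perichondrium and Pcolce, which helps to cut procollagen, with 17846, 20943, 22912 and 18805, were lowest in litter 1. Mif, with 23318, 18729, 21876 and 18658, and Ssr4, with 22145, 17711, 21577 and 18448, were highest in litter 1. Among the steadiest were Actg1, a cytoplasmic actin, with 27425, 27181, 26458 and 26786, and Tomm20, a mitochondrial import receptor, with 20782, 20022, 20778 and 20942.

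Among all probe sets above the median level, several of the largest spreads fell to dim ones with a single array below background. Pear1 gave 233, 246, 5.54 and 197, Slx4 314, 328, 263 and 47.0 and Upk2 189.5, 275, 184 and 23.5. Hbb-y, an embryonic globin gene, differed in kind, for its brightest probe set gave 565, 605, 2563 and 649 and all 3 of its probe sets were highest in litter 3. Dcaf12l1, which was named by its spread alone, gave 435, 596, 776 and 114, and its other probe set was lowest in litter 4 too.

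**Figure D4:**
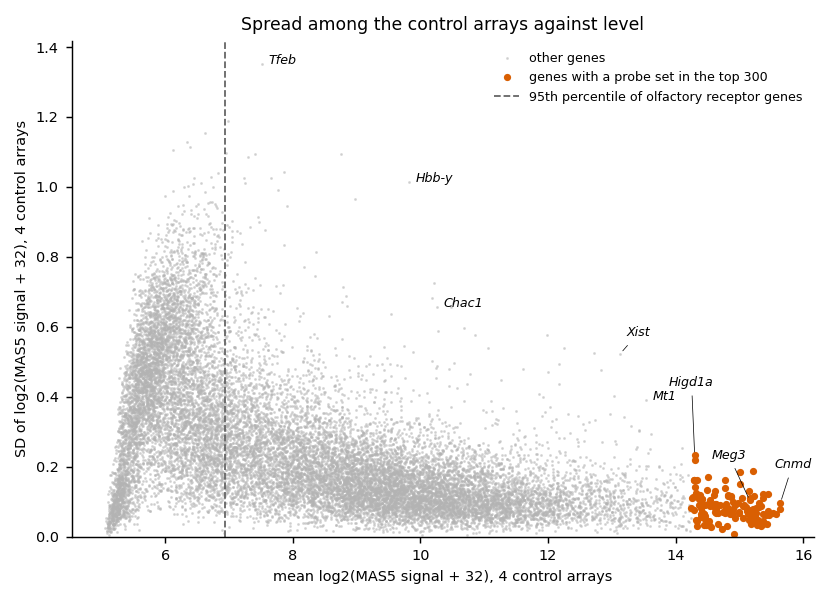
SD of log2(MAS5 signal + 32) over the 4 control arrays against the mean on the same scale, with 1 point per gene. Genes with a probe set in the first 300 (orange) lie at the right with low SDs, the spread is widest near the dashed line, the 95th percentile of olfactory receptor genes, and labelled genes such as Hbb-y, Chac1, Mt1 and Xist stand above others of their level.

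Whether the spread among the control arrays was shared by littermates was asked with the transgenic arrays of the same litters. A limma F test over the litters, with the genotype label as a covariate and Benjamini-Hochberg adjustment, called 109 of 22518 probe sets at an adjusted p under 0.05, or 0.484%, and 3319 had an unadjusted p under 0.05. The 109 named 87 genes. Taking the mean of both arrays of a litter, litter 1 was the lowest for 65 of the 109 probe sets and the highest for 30, and litter 2 the highest for 49. The median ratio of the highest to the lowest control array was 1.76. A difference between litters and one in the handling of their tissue cannot be told apart. The count rests on how the error is modelled: without the intensity trend of eBayes 0 were called (2582 at an unadjusted p under 0.05), 30 without the filter on dim probe sets and 227 with robust eBayes. With no genotype term, which leaves the labels out of the fit, 119 were called. The count also rests on single arrays, with 17 called without the control array of litter 1, 200 without that of litter 3 and 58 without that of litter 4, and 18, 219 and 59 without the transgenic arrays of litters 1, 3 and 4.

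Red cell genes were high in litter 3 and, for most, in litter 4. Of 7 erythroid genes tested 3 were called, and 6 of the 8 above background were highest in litter 3 among the control arrays and 6 among the transgenic ones. Over all genes, 87 of 11016 tested, or 0.790%, were called, and litter 3 was the highest for 23.2% of those above background on control and 23.3% on transgenic arrays. Hbb-y, adjusted p = 0.00123, gave 571, 573, 2518 and 626 on control and 457, 417, 1436 and 565 on transgenic arrays. Hbb-b2, a beta globin gene, adjusted p = 0.00195, gave 3208, 3937, 7206 and 6094 on control and 3020.1, 3518, 5521 and 4821 on transgenic arrays. The name of this probe set marks it as able to bind several transcripts. Its other probe set lay below background, with 88.0, 75.9, 30.1 and 72.8 on control arrays, lowest in litter 3. Alas2, adjusted p = 0.00271, gave 2947, 3329, 6100.2 and 4613 on control and 2170.4, 3244, 4814 and 3674 on transgenic arrays. Outside the list and picked after their values were seen, Fech, the last enzyme of heme synthesis, Bpgm, an enzyme of red cell metabolism, Slc25a37, which brings iron into mitochondria, and Tent5c were called with litter 3 highest. The 4 bright globin probe sets were not called, and their SDs over the control arrays were 0.07 to 0.10 on the log2 scale.

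Genes of perichondrium, fibroblasts and tendon were low in litter 1. Of 27 tested 5 were called, Lox, Tnmd, Col14a1, Col3a1 and Col5a2, and 18 had an unadjusted p under 0.05. Over all genes tested these shares were 0.790% and 21.5%. For Lox, Col3a1 and Col5a2 the call came from a probe set dimmer than the gene's brightest. The brightest of Lox was not called in the limma test (adjusted p = 0.0783). Of the 28 above background 22 were lowest in litter 1 among the control arrays and 21 among the transgenic ones, where litter 1 was the lowest for 29.5% and 28.3% of all genes above background. Lox, which cross-links collagen, gave 3509, 5996, 5395 and 4656 on control and 3586, 6063, 5483 and 4926 on transgenic arrays in the called probe set (adjusted p = 0.00271). Tnmd, adjusted p = 0.00605, gave 7747, 12471, 11650.0 and 9155 on control and 7816, 11541, 12110.0 and 9934 on transgenic arrays. Col8a1, a short-chain collagen, gave 1548, 3113, 2921 and 2439 on control and 1545, 2629.7, 2615 and 2270.4 on transgenic arrays, adjusted p = 0.00288. Abi3bp, Itgbl1 and Ctsk, also among the 12 smallest p values or just after them, had litter 1 as the lowest control array. Muscle genes were lowest in litter 1 as well, 15 of 25 on control and 22 of 25 on transgenic arrays, with 0 of 25 called in the limma test and 13 at an unadjusted p under 0.05. The part of these tissues in the other differences of litter 1 was not tested.

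Other genes were high in litter 1. Glycolysis had 13 of 16 genes highest there among the control arrays and 12 of 16 among the transgenic ones, where litter 1 was the highest for 26.9% and 22.4% of all genes above background. Of the 16, 2 were called, Aldoa and the glucose transporter gene Slc2a1, where 0.790% of all genes tested were. Slc2a1 gave 6068, 4103, 4459 and 4471 on control and 5820.1, 4480.3, 4375 and 4657 on transgenic arrays in the called probe set, adjusted p = 0.0443. Chac1, which breaks down glutathione, gave 2212, 964, 745 and 1274 on control and 1749, 845, 832 and 1295 on transgenic arrays, adjusted p = 0.00271. Asns, asparagine synthetase, gave 2193, 1365, 1416 and 1979 on control and 1988, 1284, 1249.5 and 2130.0 on transgenic arrays in the called probe set with the smaller p, adjusted p = 0.0102, so that litters 1 and 4 lay above litters 2 and 3. Me1, malic enzyme, gave 2235, 1351, 1011 and 1165 on control and 2545, 1819, 1149 and 1465 on transgenic arrays in the called probe set, adjusted p = 0.00271. A brighter probe set of Me1 gave 4288, 3084, 3276 and 3645 on control arrays, also highest in litter 1. It was not called in the limma test (adjusted p = 0.132). Aars, Eif4ebp1, Gpt2, Herpud1, Mthfd2 and Stc2 were called as well with litter 1 highest, Eif4ebp1 by a probe set dimmer than its brightest. Chac1, Asns and these 6 were put together after their values were seen, since they are known targets of the response to amino acid shortage and endoplasmic reticulum stress.

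The promoters of 4 of these genes are shown because they share a sequence element. The element bound by ATF4 with C/EBP factors was searched as TGATGNAA on both strands in the 250 bases before the start. Of the 7 genes of the 8 that matched the promoter table, 4 held it, and 3.53% of all 27025 promoters did. Among all genes called between litters 4 of 70 in the table held it, or 5.71%, and these were the same 4. The 8 were grouped as known targets of the response to amino acid shortage and endoplasmic reticulum stress. The count of 4 of 7 is therefore no separate support for that response. The element was chosen after the genes were known, and a match is a description and not a site. The windows, from RefSeq on GRCm38.p6, are chr6:7693210-7693459 (minus strand) for Asns, chr2:119350992-119351241 (plus) for Chac1, chr8:111033592-111033841 (plus) for Aars and chr8:94386179-94386428 (plus) for Herpud1, printed 5′ to 3′ on the gene's strand with the match in capitals, TTGCATCA being the element read on the other strand.
Asns: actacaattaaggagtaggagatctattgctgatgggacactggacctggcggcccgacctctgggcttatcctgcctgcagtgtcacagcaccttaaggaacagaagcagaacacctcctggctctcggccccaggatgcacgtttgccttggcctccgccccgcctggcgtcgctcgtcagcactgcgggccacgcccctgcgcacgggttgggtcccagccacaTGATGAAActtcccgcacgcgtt
Chac1: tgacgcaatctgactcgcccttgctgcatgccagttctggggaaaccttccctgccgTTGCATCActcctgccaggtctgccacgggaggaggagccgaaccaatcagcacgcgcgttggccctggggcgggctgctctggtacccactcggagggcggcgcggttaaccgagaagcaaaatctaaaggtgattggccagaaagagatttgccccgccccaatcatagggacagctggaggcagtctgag
Aars: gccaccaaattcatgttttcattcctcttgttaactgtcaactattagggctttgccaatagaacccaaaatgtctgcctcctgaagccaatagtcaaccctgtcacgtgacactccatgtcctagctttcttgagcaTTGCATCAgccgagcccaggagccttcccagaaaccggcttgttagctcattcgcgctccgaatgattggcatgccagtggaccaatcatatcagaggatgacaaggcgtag
Herpud1: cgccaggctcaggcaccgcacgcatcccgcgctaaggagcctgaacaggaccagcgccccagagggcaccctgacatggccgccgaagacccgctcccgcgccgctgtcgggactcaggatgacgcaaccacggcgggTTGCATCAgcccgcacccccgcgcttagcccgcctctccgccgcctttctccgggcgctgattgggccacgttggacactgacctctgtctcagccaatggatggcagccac
The match begins 23 bases before the start in Asns, 193 in Chac1 and 112 in both Aars and Herpud1.

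Smaller groups set other litters apart. The metallothionein genes Mt1 and Mt2, whose proteins bind zinc and copper, were lowest in litter 4. Mt2 gave 10034, 9082, 7641 and 5745 on control and 9698, 10678, 7697 and 5341 on transgenic arrays, adjusted p = 0.00271, and Mt1 15138, 12796, 12781 and 8064 on control and 14546, 16723, 11209.8 and 8119.5 on transgenic arrays, adjusted p = 0.0102. The nuclear noncoding RNAs Neat1 and Malat1 were called with litter 2 highest and litter 4 lowest. Jpt1 gave 1769.9, 1910.3, 2967 and 1101 on control and 1998, 2491, 2720.2 and 1228 on transgenic arrays in the called probe set, adjusted p = 0.00271, but its other 2 probe sets had SDs of 0.08 and 0.15 against 0.58. The macrophage gene Mrc1 gave 73.8, 488, 239 and 188 on control and 103, 479, 389 and 167 on transgenic arrays, adjusted p = 0.00605, highest in litter 2. Of 13 macrophage and osteoclast genes 10 were highest in litter 2 on control arrays and 2 on transgenic ones. Immediate early genes were highest in litter 2 for 17 of 31 on control and 22 of 31 on transgenic arrays, where it was the highest for 25.8% and 28.1% of all genes above background. The limma test called 0 of 30 of them, and 21 had an unadjusted p under 0.05, as did 2372 of all 11016 genes, or 21.5%. Cell cycle genes were lowest in litter 2 for 22 of 32 and 17 of 32, where it was the lowest for 22.7% and 24.6% of all genes, with 0 of 32 called by limma and 14 at an unadjusted p under 0.05.

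Matrix lists differed in their calls, which stand against 0.790% of all genes tested. Of 14 small leucine-rich proteoglycans tested 3 were called, Aspn and Kera, lowest in litter 1, and Omd, lowest in litter 4. Aspn gave 7833, 13104, 12286 and 10902 on control and 9341, 14316, 11802 and 11161 on transgenic arrays in the called probe set, adjusted p = 0.0129. Its brightest probe set gave 9270, 13851, 14517 and 13046 on control arrays and was not called in the limma test (adjusted p = 0.151). Of 9 matrilins and thrombospondins 1 was called, Thbs4. Of 38 genes on the list of collagen folding and secretion 2 were called, Serpinh1 and the protease gene Ctsk. Ctsk is on the macrophage and osteoclast list too. The limma test called 0 of 7 cartilage collagens, 0 of 10 cartilage-restricted secreted proteins, 0 of 13 hypertrophic genes, 0 of 45 ribosomal proteins, 0 of 12 Sox genes and 0 of 15 Hox genes. At an unadjusted p under 0.05 these counts were 1, 5, 3, 10, 6 and 3, where 21.5% of all genes tested lay under it. Of 377 transcription factors tested 1 was called, Ebf2. A p above the threshold does not show that their levels were alike. Of the 300 brightest probe sets all were tested and 1 was called, that of Serpinh1 with the large spread (adjusted p = 0.0131), while the brightest probe set of the same gene was not.

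**Figure D5:**
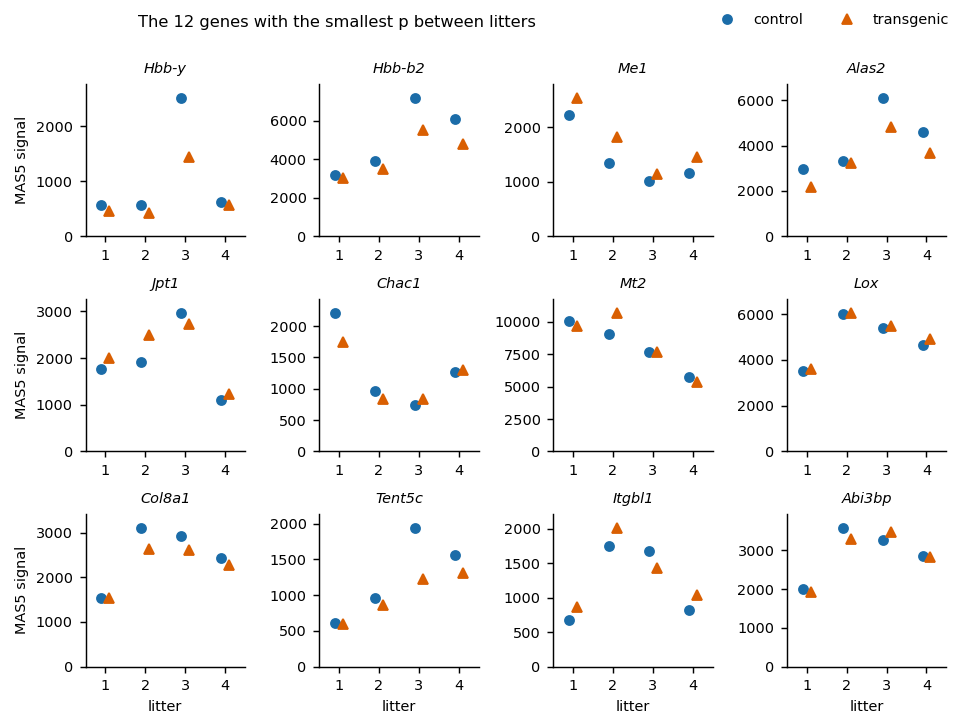
MAS5 signal (arbitrary units, each axis from 0) by litter for the 12 genes with the smallest p in the test between litters, control arrays as circles and transgenic arrays as triangles, for the probe set with the smallest p. The genes were chosen by this p. Hbb-y, Hbb-b2, Alas2 and Tent5c are highest in litter 3 on control arrays, Lox, Col8a1, Itgbl1 and Abi3bp lowest in litter 1, and Mt2 lowest in litter 4.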

How the data were processed

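Total RNA of 4 control and 4 transgenic pools was hybridised to Affymetrix arrays, 1 array per pool. The deposited values are intensities on a linear scale, which the authors summarised to 1 signal per probe set with MAS5 (as listed in the submitters' processing notes). Neither its version nor detection calls are stated, and a trimmed mean near 496 on every array shows that arrays were scaled alike. Probe sets were named from the platform's annotation: 34945 have 1 symbol, 932 several and 9160 none, and 64 manufacturer's controls were left out.

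Levels are means of log2(signal + 32), with signals given as deposited and SDs over 4 arrays. Members and gene lists were chosen with earlier results of these data known. Named are the markers, the 30 brightest genes, up to 5 of each list, the 30 brightest transcription factors and the brightest of each family, the 12 largest and 8 smallest SDs, the 12 smallest litter p-values and known chondrocyte regulators. Others were named after their values were seen.

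The only test of groups was limma 3.58.1 (R 4.3.3): an F test over litters on 8 arrays, with genotype as covariate and eBayes trend, on the 22518 probe sets above the median level, Benjamini-Hochberg adjusted and tested on simulated data. Litters come from the sample descriptions, where a control and a transgenic array share each number, and from the stated grouping of 4 litters; no label says that the number is the litter. Deviations from the group mean correlated at 0.279, 0.173, 0.0399 and 0.147 for arrays of the same number 1 to 4 and at -0.150 to 0.0952 for others, so that pair 3 lay within the range of the others. Each group has 4 arrays, which limits the precision, and pools of different litters are separate animals. Single arrays far from their group were marked by Dixon's gap criterion. Alternatives changed the constant, scaling, probe sets, filter, error model and arrays. Motif counts used RefSeq promoters (GRCm38.p6).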

Additional observations from a re-analysis of the deposited data

Results flagged for a closer look

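Among 273 named genes, 14 had a control array that stood apart from the other 3 by a gap above Dixon's critical value for groups of 4. Chance alone would mark about 5% of groups, and 5.13% were marked. No explanation was weighed.

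These values are listed with no reading of a litter, since their number is near that share. Plod2, a lysyl hydroxylase, gave 23108 on the control array of litter 1 against 19268 to 19536 on the other control arrays, and its transgenic array gave 21649 against 20294 to 21088. In the same litter Tpi1 of glycolysis gave 22388 against 17293 to 17857, with 20529 against 17931 to 18282 on transgenic arrays. Timp1, an inhibitor of metalloproteinases, gave 6002 against 4579 to 4790.1, and Pth1r 4517 against 3368 to 3554. Tagln, a gene of smooth muscle, gave 1056 against 844 to 863.

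The control array of litter 1 was low for Igfbp5, an IGF-binding protein, with 3206 against 4059.6 to 4227. The integrin gene Itgb1 gave 3403 against 3715 to 3774, the membrane protease gene Adam10 1676 against 2235 to 2328, and Retn, an adipocyte gene near background, 45.0 against 100.2 to 107.

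In litter 3, Col2a1 gave 47711 against 39633 to 40939, and its transgenic array gave 42937 against 36480.1 to 50824. Hbb-y gave 2563 against 565 to 649, with 1474 against 432 to 550.3 on transgenic arrays. In litter 4, Tsc22d1 gave 22932 against 25826 to 26418, the ETS factor Elk3 2651 against 3026 to 3104 and Foxa2 382 against 521 to 536.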

How the results depend on the processing

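The mean level of the 5 markers was 15.23 on the log2 scale and stayed at 15.21 to 15.26 when a control array was left out. Without probe sets that can bind several transcripts 175 of the 300 remained, which follows from that filter. Of 98 listed genes in the first 300, 52 were counted when a gene was the mean of its probe sets, 44 in the first 150 probe sets and 165 in the first 600. The median SD of the first 300 was 0.044 after quantile normalization, and their median range was 0.172. The level of 173 of 273 named genes moved by more than its SD when a gene was the mean of its probe sets. The litter count of 109 became 30 without the filter, 0 without the intensity trend and 227 with robust eBayes, and 17 to 219 when an array was left out; the causes were not tested. Quantile normalization gave 125 calls, which included 94 of the 109. Signals near the 95th percentile of olfactory receptor genes cannot be told from background. No paired analysis was possible because the litter that would pair the arrays is the term tested.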

Other observations

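Of the 126 named genes of the first 300 probe sets, 28 belonged to none of the lists, and those named here were picked after their values were seen. Itm2a, a membrane protein of chondrocyte differentiation, gave 39670.3, 38929, 41754 and 38995. Capn6, of the calpain family, gave 24052, 23825, 23961 and 22555, and C1qtnf3, a secreted protein of cartilage, 22352, 20934, 24367 and 22240.2. Fkbp9, a prolyl isomerase of the endoplasmic reticulum, gave 37746, 36343, 38109.6 and 36314, and Vkorc1, which recycles the vitamin K that Mgp needs for its modification, 23297, 21160.2, 21459 and 20852. Scd2, a desaturase of fatty acids, gave 29250.3, 27349.8, 26507 and 29942, and Islr, a marker of mesenchymal cells, 21646, 20430.1, 18707 and 18260.1.

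Dcaf12l1 gave 435, 596, 776 and 114 on control arrays and 80.7, 83.8, 115 and 659 on transgenic arrays of litters 1 to 4. It was thus low on the control array and high on the transgenic array in litter 4 and the other way round in litters 1, 2 and 3, as the brighter Hoxd4 and Hoxd3 probe set was with its direction turned. In Pear1 the arrays of litter 3 were the lowest of each group, with 5.54 on the control and 14.2 on the transgenic array.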
